A study of Mus musculus with 60 samples.

Results

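The maturation of long-passaged progenitors was measured in 6 RNA libraries of one cell line, IL6-iHPCs-mouse-1 (P35) and IL6-iMHs-mouse-1 (P35), with 3 samples in each group. By the study's account, IL6-iHPCs are dividing cells with progenitor features that mouse hepatocytes give rise to in culture with interleukin 6 (IL6). P35 means that the IL6-iHPCs had been passaged 35 times. IL6-iMHs are the hepatocyte-like cells made from them by induced maturation. The genes examined were those with at least 1 FPKM (fragments per kilobase of transcript, scaled to the mapped reads of the library) in at least 3 of these 6 samples, which left 11006 of the 19355 gene symbols in the table. Of the other 8349 symbols, 2381 were at 0 in all 6 samples and 5968 were detected below this limit. The 3 genes just inside the limit were Il18rap, Gm14325 and Gm20939, whose values at rank 3 of the 6 samples were 1.0002, 1.0004 and 1.0009 FPKM, and the 3 just outside were Zdhhc15, Mterf1a and Thbs3, at 0.99957, 0.9972 and 0.99471 FPKM.

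The 6 libraries belong to a table of 33 samples in 11 groups of 3, within a series of 60 samples. The cells of every group used here are labelled WT and C57BL/6, and mouse-1 is a single line followed from young adult hepatocytes, without single-cell cloning. IL6-iHPCs were kept in a medium with epidermal growth factor (EGF), hepatocyte growth factor (HGF), dexamethasone and IL6, and maturation replaced it with a medium that had more dexamethasone and oncostatin M but no EGF, HGF or IL6. The same line at 10 passages (IL6-iHPCs-mouse-1 (P10) and IL6-iMHs-mouse-1 (P10)) and freshly isolated hepatocytes served as references. The 3 samples of a group are technical repeats by the study's own account, so their spread, and every p-value here, reflects technical error only and says nothing of other mice or of repeated maturations.

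Hepatocytes are the secretory and metabolic cells of the liver, and their identity rests on a network of transcription factors in which Hnf4a and Cebpa bind the promoters of genes for plasma proteins, apolipoproteins and metabolic enzymes. In culture with growth factors they re-enter the cell cycle, lose much of this programme and take on markers of the biliary lineage, a change known as dedifferentiation. Glucocorticoids and oncostatin M, a cytokine of the IL6 family that drives the maturation of fetal hepatocytes, are used to bring the programme back.

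The libraries held between 54.9 and 73.9 M reads on genes. The labels were checked against markers, and all 10 hepatocyte markers (Alb, Hnf4a, Ttr, Apoa1, Cps1, Tat, Cyp1a2, Cyp2e1, Cyp3a11 and Asgr1) reached a mean of 1 FPKM in the IL6-iMHs and 4 of the 10 did so in the IL6-iHPCs. Of 7 biliary and progenitor markers, 5 reached 1 FPKM in the IL6-iHPCs and 4 in the IL6-iMHs, and Epcam and Prom1 did so in neither. Most markers of other liver cells were low or absent. All 6 endothelial markers lay under 1 FPKM in both groups, as did 7 of 8 stellate cell and fibroblast markers in the IL6-iHPCs and all 8 in the IL6-iMHs, and Clec4f and Vsig4, which define Kupffer cells, were at 0 in all 6 samples. Of 4 mesothelial markers Upk3b, Wt1 and Gpm6a lay under 1 FPKM, but Msln, mesothelin, was abundant in both groups, with 253, 256 and 246 FPKM in the IL6-iHPCs and 162, 148 and 154 FPKM in the IL6-iMHs, and was listed at 0 in hepatocytes. No 2 libraries of a group agreed within counting error, and Pearson's r between them, across genes, was at least 0.995.

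On maturation genes of hepatocyte function rose and genes of cell division and of the progenitor state fell. Alb and vitronectin (Vtn) rose 36.6-fold and 289-fold in mean FPKM, and the cyclin Ccnb1 and the progenitor marker Spp1 fell to levels 299.9-fold and 25.7-fold lower. In all, 1245 genes rose and 4321 fell, with an adjusted p below 0.05 and a 2-fold change or more, so that 50.6% of all genes tested were called, 11.3% higher and 39.3% lower. The median change over all genes was -0.72 on the log2(FPKM + 1) scale, on which all fold changes below are given and which understates the change of genes with low values and is no bound for genes at 0. The hepatocyte genes of the lists took 30.3% to 33.2% of all reads in the IL6-iMHs, against 3.81% to 3.84% in the IL6-iHPCs, and FPKM is a share of each library. After quantile normalization 1932 genes were higher and 2088 lower, and after median-of-ratios scaling 1968 and 2068, with median changes of -0.17 and -0.16. The change also moved with transcript length, from a median of -0.19 among the 2207 shortest genes to -1.09 among the 2201 longest, and with this trend taken out 2067 genes were higher and 1601 lower. Every fall larger than 2.12 kept its call under all 3 of these settings, as did every rise larger than 1.76, whereas 2920 of the 4321 falls, all of at most 2.12, lost their call in at least 1 of them. The part of length and of library composition in these smaller falls was not tested, and the lists below are therefore read against the median of all genes.

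**Figure D1:**
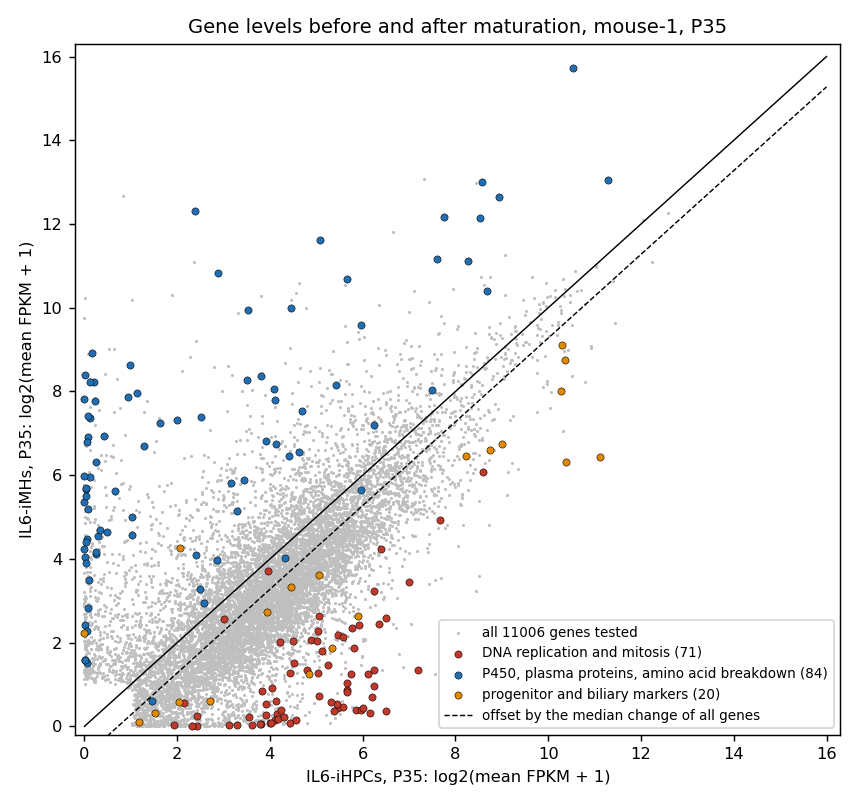
Mean level of each of 11006 genes in IL6-iHPCs (x axis) and IL6-iMHs (y axis) of mouse-1 at P35, both as log2(mean FPKM + 1), with genes of 3 groups of lists in colour. Genes of DNA replication and mitosis lie far below the line of equal levels, genes of cytochromes P450, plasma proteins and amino acid breakdown above it, and the dashed line marks the median change of -0.72.

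The largest rises were of secreted proteins and metabolic enzymes. Mup20, a major urinary protein that carries pheromones, had 0.944, 0.694 and 0.722 FPKM in the IL6-iHPCs and 6475, 7215 and 5946 FPKM in the IL6-iMHs (log2 fold change 11.84 ± 0.22 (SE)). Inmt, a methyltransferase, rose from 0, 0.0321 and 0 to 1068, 1386 and 1176 FPKM, and Serpina3k, a serine protease inhibitor of plasma, from 4.097, 4.62 and 3.88 to 4935, 5552 and 4699.6 FPKM. In each of the 3 genes the lowest IL6-iMH sample lay far above the highest IL6-iHPC sample, as the 2 groups did without overlap in 92.1% of all genes tested. Among the 15 largest rises were also Mup3, Apoc3, Apoa4, Cyp2d9, Tff3, Cdo1, Cyp2a12, Ass1, Cps1 and Cyp3a11, with log2 fold changes from 8.10 to 9.75. The Mup, Cyp2d and Serpina3 genes have near-identical copies, among which reads can be split in ways that make the value of a single gene uncertain.

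Most of the largest falls were of genes of cell division. Cxcl5, a chemokine that attracts neutrophils, fell the most, from 181, 189 and 191 to 1.16, 1.896 and 1.06 FPKM (-6.32 ± 0.12). Of the 15 largest falls 8 were in the lists of cell division, namely Ccnb1, Ube2c, Ccna2, Top2a, Ccnb2, Plk1, Mcm5 and Mcm3, and Kif22, a mitotic kinesin, and Pbk, a mitotic kinase, were also among them. The remaining 4 were Igfbp3, a binding protein of insulin-like growth factors, Sprr2h, of the cornified envelope of squamous epithelia, Tuba1a, an alpha tubulin, and Vcan, a matrix proteoglycan. Igfbp3 went from 114, 119 and 115 to 1.78, 1.703 and 1.55 FPKM and Vcan from 43.6, 39.6 and 40.8 to 0.249, 0.0847 and 0.123 FPKM.

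Genes of mitosis fell together. All 36 listed genes were tested and 35 fell, with a median change of -4.20, against -0.72 for all genes and 39.3% of all genes lower. Of the 36, 29 had reached 1 FPKM in the IL6-iHPCs only. Ccnb1, the cyclin that drives entry into mitosis, had 88.3, 87.3 and 91.4 FPKM in the IL6-iHPCs and 0.196, 0.445 and 0.249 FPKM in the IL6-iMHs (-6.12 ± 0.11, adjusted p = 3.2e-28). Ube2c, the ubiquitin-conjugating enzyme of the anaphase-promoting complex, had 151, 143 and 140.5 FPKM in the IL6-iHPCs and 2.38, 0.816 and 1.39 FPKM in the IL6-iMHs (-5.90 ± 0.21), with the highest of the IL6-iMH samples at 2.38 FPKM still far below the IL6-iHPCs. Mki67, the proliferation antigen Ki67, fell from 22.5, 19.1 and 20.4 to 0.0956, 0.055 and 0.027 FPKM and Foxm1, the transcription factor that switches on mitotic genes, from 39.3, 38.6 and 38.3 to 0.559, 0.367 and 0.547 FPKM. In freshly isolated hepatocytes Ccnb1 was at 0.0935 ± 0.0562 FPKM (SD, n = 3) and Mki67 at 0.00526 ± 0.00323 FPKM. Neither was called different from the IL6-iMHs. That outcome was fixed, since levels under 1 FPKM in both groups cannot differ 2-fold on the log2(FPKM + 1) scale.

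Genes of DNA replication behaved alike. Of 35 genes 34 fell, with a median of -3.31, and 10 of the 35 had reached 1 FPKM in the IL6-iHPCs only. Mcm5 and Mcm3, subunits of the replicative helicase, fell from 56.2, 58.5 and 55.9 to 0.223, 0.29 and 0.454 FPKM and from 73.3, 76.1 and 76.4 to 0.876, 1.01 and 0.989 FPKM. Rrm2, the regulatory subunit of ribonucleotide reductase, fell as well but stayed the highest of these genes, at 389, 374 and 394 FPKM in the IL6-iHPCs and 72.9, 60.2 and 67.01 FPKM in the IL6-iMHs. Its level in the IL6-iMHs remained above that of hepatocytes, 1.12 ± 0.216 FPKM, and so did that of Uhrf1, an epigenetic regulator of replicating DNA, at 72.5, 78.2 and 74.04 FPKM in the IL6-iHPCs and 1.46, 1.38 and 1.77 FPKM in the IL6-iMHs beside 0.236 ± 0.0362 FPKM in hepatocytes.

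The promoters of these genes are shown because many of them carry the letters of known cell cycle elements. The CCAAT box is bound by NF-Y, the cell cycle genes homology region (CHR) by the DREAM and MuvB complexes, and the E2F element by E2F factors. The last 150 bases before the start site are printed 5′ to 3′ on the strand of the gene (RefSeq, GRCm38.p6), with these letters or their reverse complement in capitals. Those of Ccnb1 (chr13:100786487-100786636, minus strand), Ube2c (chr2:164769779-164769928, plus strand) and Cdc20 (chr4:118437344-118437493, minus strand) each hold 2 CCAAT boxes, and those of Ube2c and Cdc20 also a CHR. In that of Uhrf1 (chr17:56303187-56303336, plus strand) the capitals mark an E2F element and 1 CCAAT box.
Ccnb1: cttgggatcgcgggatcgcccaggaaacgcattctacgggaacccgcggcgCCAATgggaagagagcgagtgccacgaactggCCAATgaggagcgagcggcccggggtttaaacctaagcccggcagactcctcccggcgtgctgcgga
Ube2c: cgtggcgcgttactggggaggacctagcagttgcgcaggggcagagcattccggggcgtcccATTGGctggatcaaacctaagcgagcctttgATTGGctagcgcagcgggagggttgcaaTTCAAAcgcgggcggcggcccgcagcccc
Cdc20: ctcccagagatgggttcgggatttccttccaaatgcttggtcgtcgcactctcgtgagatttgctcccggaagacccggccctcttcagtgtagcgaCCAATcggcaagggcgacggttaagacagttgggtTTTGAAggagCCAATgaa
Uhrf1: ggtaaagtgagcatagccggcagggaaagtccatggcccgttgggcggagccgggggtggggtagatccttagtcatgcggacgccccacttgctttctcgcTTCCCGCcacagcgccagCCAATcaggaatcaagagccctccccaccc
Cdc20, the activator of the anaphase-promoting complex, had 68.1, 66.2 and 68.97 FPKM in the IL6-iHPCs and 1.204, 1.38 and 1.56 FPKM in the IL6-iMHs. In a search of the 250 bases before the start on both strands, CCAAT was found in 21 of 30 mitosis promoters given by the table (70%) and in 20 of 30 of DNA replication (66.7%), against 37.3% of 8592 promoters of genes tested. At least 2 CCAAT boxes were found in 43.3% of mitosis promoters, against 14.2%. The CHR, searched as TTTGAA or TTCGAA, was found in 33.3% of mitosis promoters and 12% of those of genes tested, and the E2F element, searched as GCGGGAA, in 33.3% of DNA replication promoters, 0 of 30 mitosis promoters and 7.25% of those of genes tested. These searches describe letters, were chosen with the results known, and show no binding.

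Of the G1 cyclins and their partners, 11 of 14 fell and none rose (median -1.66). Ccnd1, the cyclin through which growth factors start the cycle, fell from 281, 283 and 285 to 45.3, 43.2 and 47.6 FPKM, which left it above hepatocytes at 2.23 ± 0.0839 FPKM. Skp2, which marks cell cycle inhibitors for degradation, fell from 7.75, 8.34 and 8.36 to 0.486, 0.329 and 0.327 FPKM. E2f1, Ccnd3 and Mycn did not pass the test, with changes of -0.50, 0.69 and 0.35. E2f1, a factor that switches on replication genes, had 16.9, 16.5 and 15.7 FPKM in the IL6-iHPCs and 10.1, 11.2 and 12.8 FPKM in the IL6-iMHs. Of 22 cell cycle inhibitors and p53 targets tested, 12 fell and 1 rose, beside 39.3% of all genes lower, and under the other scalings 7 or 8 were lower and 2 or 3 higher. Cdkn1a, the inhibitor p21, had 98.9, 101 and 99.3 FPKM in the IL6-iHPCs and 152, 149 and 159 FPKM in the IL6-iMHs (0.62), which was called higher after median-of-ratios scaling and with the length trend removed. Trp53, the tumour suppressor p53, fell from 118, 117 and 115 to 13.7, 15.5 and 15.6 FPKM and Ccng1, one of its targets, from 169, 164 and 171 to 18.9, 17.7 and 14.2 FPKM. Btg2, an antiproliferative gene of the immediate early class, was the one that rose, from 15.8, 14.5 and 16.5 to 52.6, 82.9 and 54.5 FPKM.

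**Figure D2:**
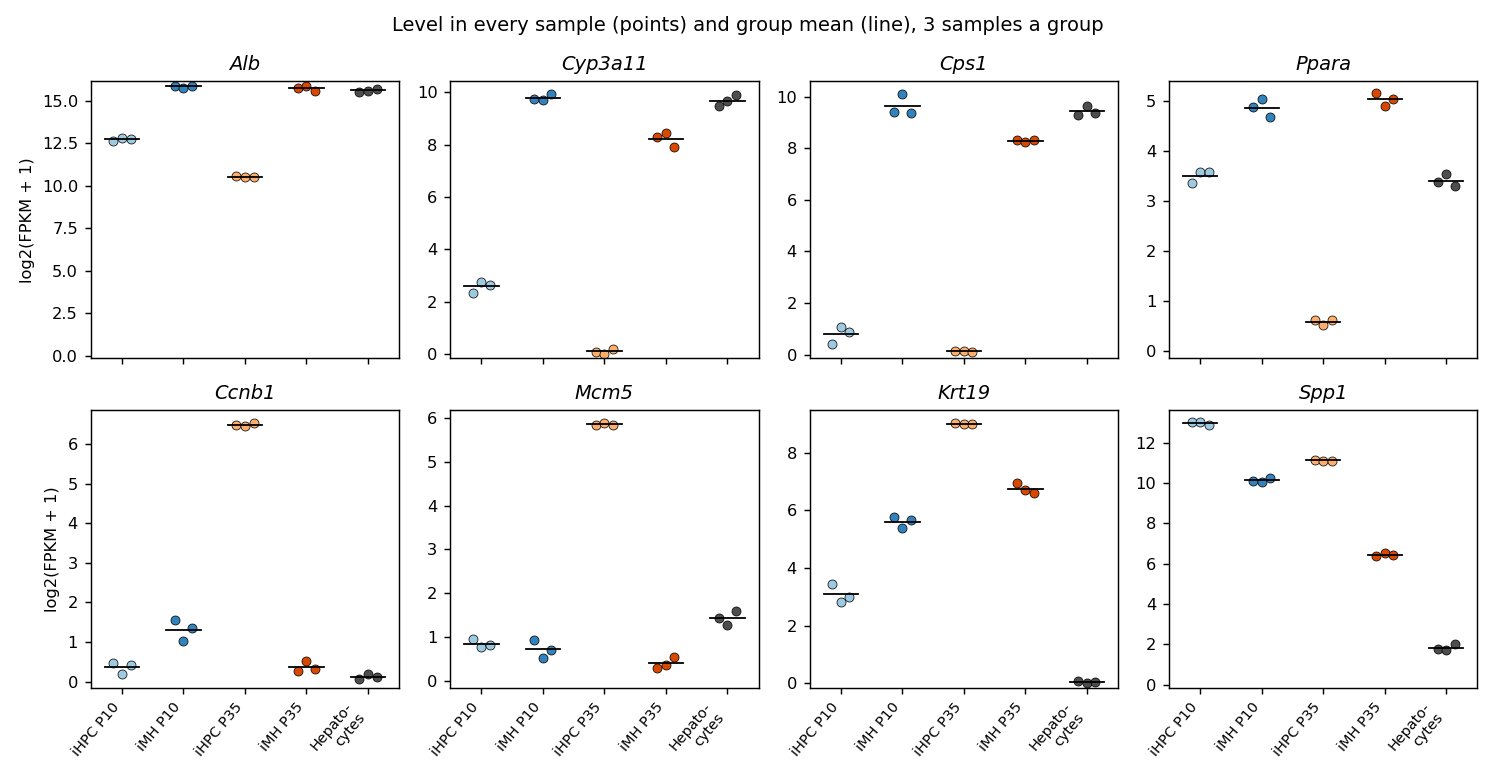
Level of 8 genes as log2(FPKM + 1) in every sample of 5 groups of mouse-1 cells and hepatocytes, with 3 points a group and a line at their mean. Alb, Cyp3a11, Cps1 and Ppara rise and Ccnb1, Mcm5, Krt19 and Spp1 fall between IL6-iHPCs and IL6-iMHs at P35, whereas at P10 Ccnb1 and Mcm5 are low in both groups.

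Secreted plasma proteins rose almost throughout. Of 25 listed genes 23 were tested, 21 rose and none fell, with a median of 4.42, and 20 of the 23 had been at 1 FPKM or more in both groups. Alb, serum albumin, had 1502, 1476 and 1494 FPKM in the IL6-iHPCs and 55562, 58912 and 49049 FPKM in the IL6-iMHs (5.19 ± 0.11), and its level did not pass the test against hepatocytes, which held 50010.0 ± 3332 FPKM. Vtn, vitronectin, rose from 6.71, 6.25 and 6.01 to 1679.9, 1857 and 1952 FPKM (7.96 ± 0.09) and Ttr, the carrier of thyroxine and retinol, from 51.001, 46.1 and 51.5 to 1557, 1816 and 1606 FPKM. The IL6-iMH samples of these genes did not overlap with the IL6-iHPC samples, as in 92.1% of all genes tested. Alb alone took 10.1% to 12.1% of the reads of each IL6-iMH library.

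The transcription factors of hepatocytes changed far less than these products. Of 22 tested, 10 rose and 3 fell, with a median of 0.68, or 0.17 over all members with any read. Of the 22, 3 reached 1 FPKM in the IL6-iMHs only. Hnf4a was already at 147, 145 and 142 FPKM in the IL6-iHPCs, beside 140.3 ± 6.55 FPKM in hepatocytes, and had 281, 274 and 273 FPKM in the IL6-iMHs, a change of 0.93 ± 0.06 that is just under 2-fold and was called after median-of-ratios scaling and with the length trend removed. Foxa2, a pioneer factor of endoderm, did not pass the test either, with 39.04, 40.9 and 39.96 FPKM in the IL6-iHPCs and 19.4, 19.5 and 21.7 FPKM in the IL6-iMHs. Cebpa rose from 24.5, 25.4 and 25.7 to 76.5, 78.4 and 88.02 FPKM, still below the 274 ± 27.6 FPKM of hepatocytes. The factors with the largest rises were those of fasting metabolism: Ppara, the receptor that switches on fatty acid oxidation, rose from 0.536, 0.423 and 0.531 to 34.9, 28.8 and 31.8 FPKM (4.45 ± 0.10), and Creb3l3, a membrane-bound factor of liver and gut, from 5.295, 5.503 and 5.36 to 79.03, 86.9 and 89.7 FPKM (3.75 ± 0.05). Gata6 and Onecut2, factors of early endoderm and of the embryonic liver, fell from 8.76, 9.67 and 9.93 to 0.331, 0.517 and 0.343 FPKM and from 12.4, 11.3 and 12.2 to 4.09, 2.83 and 3.01 FPKM. The fall of Onecut2, -1.60 ± 0.12, is within the range that depended on the scaling.

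Coagulation and complement genes rose for the most part. In coagulation and fibrinolysis 18 of 26 genes rose and 6 fell, but 7 of the 26 reached 1 FPKM in the IL6-iMHs only. The median was 2.49, or 1.58 over all members with any read. F2, prothrombin, rose from 22.7, 23.7 and 20.98 to 1310.3, 1264 and 1331 FPKM and F12 from 0, 0.0499 and 0.0346 to 46.4, 47.3 and 46.5 FPKM. Among the falls were Plat, tissue plasminogen activator, from 75.8, 74.9 and 75.1 to 7.73, 8.33 and 7.803 FPKM, and Pros1, protein S, from 55.4, 55.8 and 57.9 to 7.41, 7.09 and 7.92 FPKM. In complement 15 of 18 rose and 2 fell, of which list 5 reached 1 FPKM in the IL6-iMHs only. C9, of the membrane attack complex, rose from 1.302, 1.12 and 1.36 to 33.4, 38.5 and 29.8 FPKM. Fga and Fgb, chains of fibrinogen that were already abundant in the IL6-iHPCs, averaged 434 and 892 FPKM there and 620.0 and 933 FPKM in the IL6-iMHs and did not pass the test.

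Acute phase proteins, which hepatocytes secrete in response to IL6, were divided, with 8 of 17 higher and 3 lower. Crp, C-reactive protein, rose from 10.7, 11.4 and 11.8 to 254, 294 and 239 FPKM and Serpina3m from 24.5, 24.3 and 22.8 to 1628, 1599.6 and 1389 FPKM, while Saa3, a serum amyloid, fell from 319, 311 and 297 to 125, 157 and 126 FPKM and Steap4, an iron reductase, from 32.5, 32.3 and 33.01 to 13.3, 13.7 and 14.2 FPKM. The falls of Saa3 and Steap4, -1.18 and -1.19, were within the range that depended on the scaling, and 0 of the 3 falls held after median-of-ratios scaling.

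Cytochromes P450, the oxidases of drug and steroid metabolism, had the highest median of the lists with at least 5 genes tested, 5.12. Of 38 listed there, 29 were tested, 25 rose and none fell. Since 18 of the 29 reached 1 FPKM in the IL6-iMHs only, they entered through the group in which they were high, and over all members with any read the median was 3.46. Cyp2a12 rose from 0.0162, 0 and 0 to 319, 387 and 307 FPKM, and Cyp3a11, the main drug-metabolizing enzyme of its family, from 0.0725, 0.024 and 0.166 to 311, 349 and 242 FPKM (8.10 ± 0.14, adjusted p = 8.0e-29). Cyp1a2 and Cyp2e1, enzymes of hepatocytes around the central vein, rose too but only to 1.58, 1.98 and 2.39 FPKM and 15.2, 17.4 and 13.6 FPKM, against 297 ± 23.1 and 2733 ± 142 FPKM in hepatocytes. Of 36 conjugating enzymes 30 rose and none fell, among them Sult1d1, a sulfotransferase, from 0.633, 0.658 and 0.62 to 329, 359 and 251 FPKM and Gstt1, a glutathione transferase, from 1.34, 1.605 and 1.401 to 166, 199 and 182 FPKM. Of these 36, 12 reached 1 FPKM in the IL6-iMHs only, and 11.3% of all genes rose. In bile acid synthesis and transport 16 of 20 rose, of which list 11 genes reached 1 FPKM in the IL6-iMHs only (median 2.59, or 2.07 over all members with any read). Slc27a5 and Baat, which activate bile acids and join them to taurine, rose from 0.093, 0.0845 and 0.0439 to 158, 176 and 189.9 FPKM and from 0.212, 0.277 and 0.36 to 61.7, 80.9 and 65.3 FPKM. Abcc4, an efflux pump of the basolateral membrane, was the one that fell, from 50.6, 52.5 and 51.3 to 6.196, 4.97 and 5.88 FPKM, and Cyp7a1, the rate-limiting enzyme of bile acid synthesis, had at most 2 reads in any of the 6 samples.

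**Figure D3:**
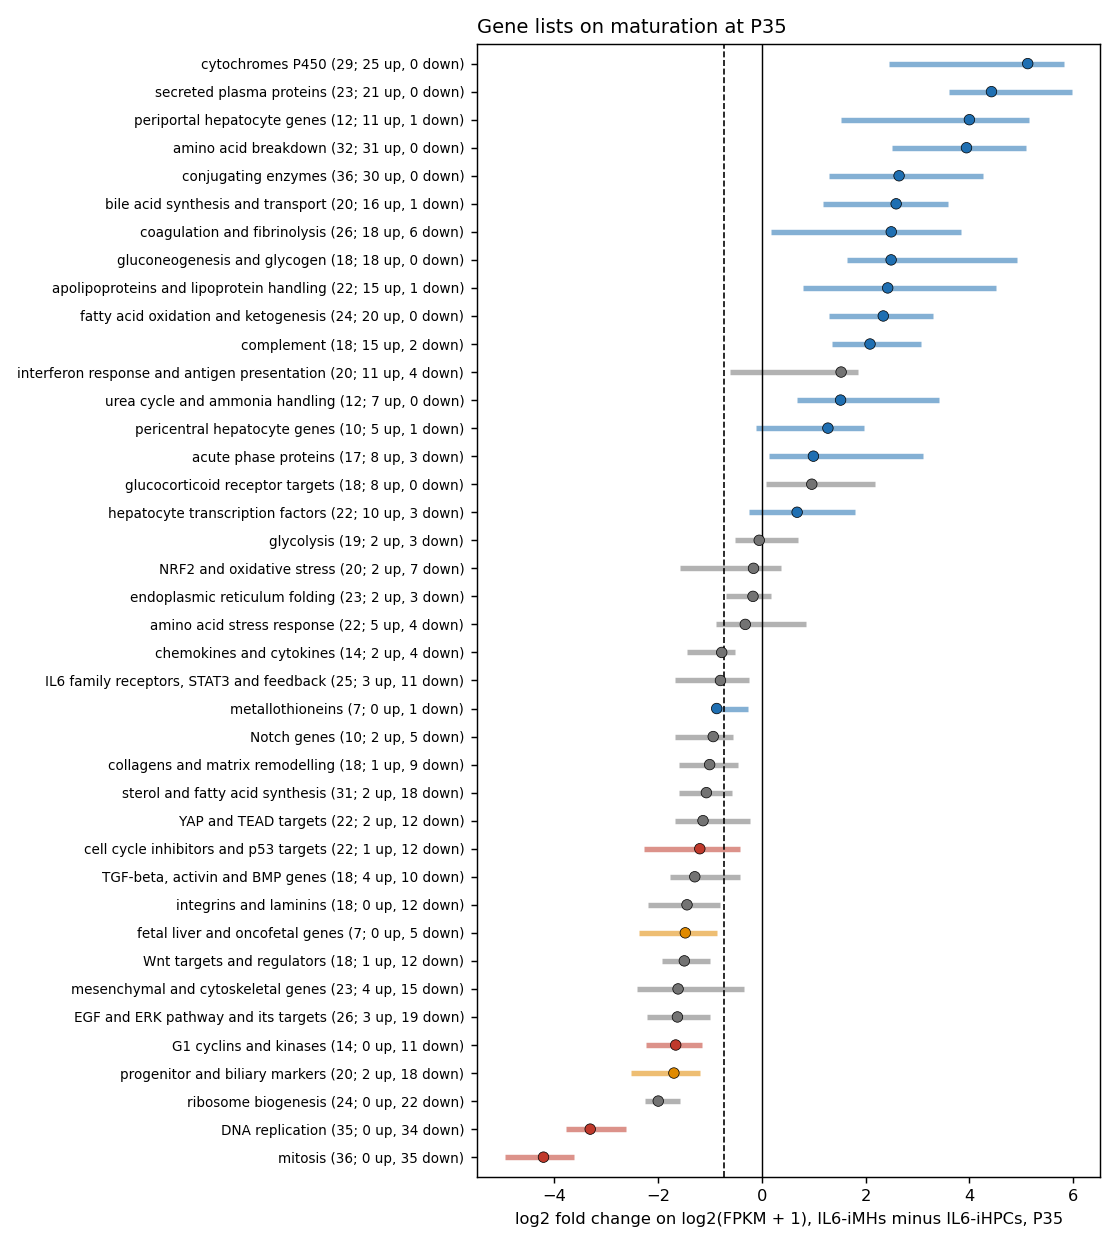
Median log2 fold change (points) and interquartile range (bars) of the genes tested in each list with at least 7 such genes, IL6-iMHs minus IL6-iHPCs at P35, with hepatocyte lists in blue, cell cycle lists in red and progenitor and fetal lists in orange; the labels give the number tested and called. The dashed line is the median of all genes, -0.72, and cytochromes P450 (5.12) and mitosis (-4.20) are the extremes.

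Enzymes of nitrogen metabolism rose, to different degrees. In amino acid breakdown 31 of 32 genes rose and none fell (median 3.94), although 16 of the 32 reached 1 FPKM in the IL6-iMHs only. Hpd, of tyrosine breakdown, had 0 reads in each IL6-iHPC sample and 204, 261 and 212 FPKM in the IL6-iMHs. Mat1a, the liver form of S-adenosylmethionine synthetase, rose from 0.21, 0.173 and 0.15 to 188, 258 and 212 FPKM, and Fah, the last enzyme of tyrosine breakdown, from 42.01, 43.5 and 40.8 to 273, 278 and 305 FPKM, a level that did not pass the test against hepatocytes (357 ± 31.1 FPKM). In the urea cycle and ammonia handling 7 of 12 genes rose, and 3 of the 12 reached 1 FPKM in the IL6-iMHs only. Cps1 and Ass1, the enzymes that bring in ammonia and aspartate, went from 0.103, 0.104 and 0.0774 to 319.7, 305 and 321 FPKM and from 0.639, 0.583 and 0.429 to 469, 556 and 512 FPKM. Arg1, arginase, which releases urea, reached only 17.3, 21.5 and 16.5 FPKM, against 1107 ± 68.5 FPKM in hepatocytes, and Otc, which joins ornithine to carbamoyl phosphate, stayed below the limit for testing with 0, 0.0122 and 0 FPKM before and 0.621, 1.08 and 1.04 FPKM after maturation, against 150.3 ± 0.349 FPKM. The cycle was therefore uneven, with Cps1 at 44.9%, Ass1 at 23.9%, Asl at 12.4%, Arg1 at 1.67% and Otc at 0.608% of the hepatocyte mean.

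In carbohydrate metabolism the glucose-producing enzymes rose and glycolysis was divided. All 18 genes of gluconeogenesis and glycogen tested rose (median 2.49), of which 8 reached 1 FPKM in the IL6-iMHs only. Slc2a2, the glucose transporter of hepatocytes, rose from 0.8, 0.485 and 0.79 to 196, 197 and 188 FPKM. Pck1, the enzyme that commits carbon to glucose, rose from 0 in each sample to only 1.099, 1.84 and 1.47 FPKM, beside 629 ± 45.6 FPKM in hepatocytes. In glycolysis 2 of 19 rose and 3 fell, beside 11.3% of all genes higher and 39.3% lower. The median was -0.05 and turned to 0.60 after median-of-ratios scaling. Pkm, the pyruvate kinase of dividing cells, fell from 1924, 1964 and 1928 to 563, 510.1 and 560.3 FPKM and Hk1, hexokinase 1, from 31.9, 33.2 and 33.2 to 8.996, 7.39 and 10.1 FPKM, the latter a call lost under at least 1 other scaling, while Aldoc, an aldolase of brain, rose from 18.6, 19.4 and 18.9 to 103, 103 and 104 FPKM. Pkm stayed far above hepatocytes (2.93 ± 0.212 FPKM).

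Genes of lipid breakdown rose, and more genes of lipid synthesis fell than rose. In fatty acid oxidation and ketogenesis 20 of 24 rose and none fell, and 3 of the 24 reached 1 FPKM in the IL6-iMHs only. Fabp1, the fatty acid carrier of liver, rose from 5.42, 3.0004 and 4.403 to 489.6, 709.5 and 568 FPKM. In sterol and fatty acid synthesis 18 of 31 fell and 2 rose, beside 39.3% of all genes lower, with a median of -1.07 against -0.72. Only 8 were lower after median-of-ratios scaling and 7 with the length trend removed, where 2068 and 1601 of all 11006 genes were lower. Hmgcs1, of cholesterol synthesis, fell from 172, 169.8 and 174 to 22.9, 23.5 and 23.4 FPKM and Scd1, which makes monounsaturated fatty acids, from 420.2, 416 and 427 to 84.7, 68.7 and 90.03 FPKM, and both falls kept their call. Among apolipoproteins and lipoprotein genes 15 of 22 rose and 1 fell, and 7 of the 22 reached 1 FPKM in the IL6-iMHs only. Apoc3 and Apoa4, of triglyceride-rich particles, rose from 0.854, 0.916 and 1.38 to 1170.0, 1185 and 1112 FPKM and from 0.0731, 0.108 and 0 to 508, 468 and 457 FPKM.

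Hepatocyte genes of both ends of the lobule were present. Of 12 periportal genes tested 11 rose and Ctsc fell (median 3.999), but 7 of the 12 reached 1 FPKM in the IL6-iMHs only and so entered through the group in which they were high. After Ass1 and Cps1 the largest of these rises was of Hsd17b13, a lipid droplet enzyme, from 8.93, 8.88 and 8.84 to 925, 984 and 884 FPKM. Of 10 pericentral genes 5 rose and Lect2 fell (median 1.27), of which 4 entered in the same way. Over all members with any read the medians were 3.86 and 0.01. Cyp27a1, of bile acid synthesis, rose from 14.8, 15.8 and 15.3 to 112, 119.8 and 129 FPKM, whereas Glul, glutamine synthetase, which marks the last layer of cells around the central vein, had 38.1, 38.2 and 37.3 FPKM in the IL6-iHPCs and 35.7, 35.9 and 37.2 FPKM in the IL6-iMHs and did not pass the test (-0.06 ± 0.06). Of 13 major urinary proteins Mup20, Mup3 and Mup21 were tested, which reached 1 FPKM in the IL6-iMHs only and so could enter only by rising, and 8 of the others were at 0 in all 6 samples.

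Markers of progenitors and bile duct cells fell. Of 28 listed 20 were tested, 18 fell and 2 rose, with a median of -1.69 against -0.72 for all genes, and 11 or 12 were lower under the other scalings. Of the 20, 4 reached 1 FPKM in the IL6-iHPCs only, and over all members with any read the median was -1.20. Spp1, osteopontin, fell from 2269, 2184 and 2194 to 82.1, 90.9 and 85.2 FPKM (-4.67 ± 0.11) and Vim, the intermediate filament of mesenchymal cells, from 1316, 1355 and 1341 to 83.8, 75.2 and 77.8 FPKM (-4.07 ± 0.09). Sox9, the transcription factor of bile duct cells, fell from 5.54, 5.43 and 5.58 to 0.544, 0.444 and 0.549 FPKM, which did not differ by the test from the 1.29 ± 0.419 FPKM of hepatocytes. Krt19, a keratin of bile ducts, fell too, from 517, 506 and 508 to 123, 102 and 95.7 FPKM, but remained far above hepatocytes (0.0273 ± 0.0258 FPKM). Krt7, its biliary partner, went the other way, from 2.77, 3.61 and 3.17 to 18.97, 17.4 and 18.6 FPKM (2.21 ± 0.14), and Ggt1, gamma-glutamyltransferase, rose from 0 in each sample to 3.24, 4.02 and 3.88 FPKM. Of 15 fetal and oncofetal genes 7 were tested, with a median of -1.47, or -0.27 over all members with any read. Of these 7, 5 fell: Afp, alpha-fetoprotein, from 8.92, 9.64 and 9.67 to 0.776, 0.825 and 1.16 FPKM and Hmga2, a chromatin protein of fetal and transformed cells, from 130.4, 128 and 134 to 4.88, 3.87 and 4.52 FPKM.

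Many genes of the cytoskeleton and matrix fell as well. Of 23 mesenchymal and cytoskeletal genes 15 fell and 4 rose, and 11 to 13 were lower under the other scalings. S100a4, a calcium-binding protein of motile cells, fell from 19.8, 15.9 and 11.1 to 0.608, 0.532 and 0.952 FPKM. Of 18 collagens and matrix remodelling genes 9 fell and 1 rose, beside 39.3% of all genes lower, and the count depended on the scaling, with 5 lower and 3 higher after median-of-ratios scaling and 3 lower and 4 higher with the length trend removed. Of 18 integrins and laminins 12 fell, and 8 and 6 were lower under these settings. Timp1, an inhibitor of matrix proteases, fell from 111, 102 and 105 to 7.24, 7.48 and 7.42 FPKM, and Itga6, the laminin receptor, from 37.9, 39.2 and 40.4 to 2.68, 2.54 and 2.72 FPKM. Sulf2, which trims heparan sulfate, fell from 6.45, 6.98 and 6.77 to 0.00472, 0.0175 and 0.0166 FPKM, and Lamb1, a laminin chain, from 19.3, 20.9 and 20.2 to 1.14, 0.658 and 1.08 FPKM. Col18a1, a collagen that hepatocytes make, was the matrix gene that rose, from 43.9, 46.4 and 45.7 to 213, 178 and 262 FPKM, and Ctgf, a secreted target of YAP, rose from 62.9, 65.97 and 63.04 to 258, 243 and 268 FPKM.

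Maturation removed EGF, HGF and IL6 and added oncostatin M and more dexamethasone at once. The part of each in the lists of signalling genes cannot be told apart. Genes of the IL6 pathway were called at rates near those of all genes. Of 25 tested 11 fell and 3 rose, beside 39.3% of all genes lower and 11.3% higher. The median was -0.80, beside -0.72 for all genes, and turned to 0.08 with the length trend removed. Socs3, the feedback inhibitor that STAT3 induces, fell from 61.5, 65.6 and 62.2 to 3.26, 3.19 and 2.87 FPKM (-3.97 ± 0.07). Osmr, the receptor chain for oncostatin M, fell from 12.7, 11.6 and 11.7 to 0.519, 0.447 and 0.329 FPKM (-3.18 ± 0.09), so that it was under 1 FPKM in all 3 IL6-iMH samples. Il6ra, the receptor for IL6, rose from 5.899, 5.55 and 5.86 to 23.2, 20.9 and 24.1 FPKM (1.81 ± 0.10), and Fos, an immediate early transcription factor, from 1.51, 1.41 and 1.78 to 35.3, 63.96 and 38.3 FPKM.

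In the list of EGF and ERK signalling 19 of 26 genes fell and 3 rose, beside 39.3% of all genes lower and 11.3% higher. After median-of-ratios scaling 15 were lower, after quantile normalization 14 and with the length trend removed 10. Etv4, an ERK-induced transcription factor, fell from 20.98, 20.6 and 17.9 to 0.11, 0.0583 and 0.0761 FPKM (-4.26 ± 0.09) and Emp1, an epithelial membrane protein, from 175, 167 and 175 to 10.3, 9.82 and 8.71 FPKM (-4.03 ± 0.12). Egr1, an immediate early target of ERK, went the other way, from 17.5, 18.2 and 16.29 to 75.8, 133 and 86.6 FPKM (2.40 ± 0.18). The second IL6-iMH sample was the highest of the 3 in Fos, Egr1 and Btg2. Of 18 targets of the glucocorticoid receptor 8 rose and none fell (median 0.96), beside 11.3% of all genes higher and 39.3% lower. Of these 18, 3 reached 1 FPKM in the IL6-iMHs only, and over all members with any read the median was 0.79. Tdo2, tryptophan dioxygenase, rose from 0.0497, 0.01 and 0.0417 to 102, 135 and 93.6 FPKM and Hsd11b1, which activates glucocorticoids, from 0.402, 0.5 and 0.291 to 114, 148 and 104 FPKM.

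With the values as given, other growth pathways also had falls at rates above the 39.3% of all genes. In the YAP and TEAD list 12 of 22 fell and 2 rose, in the Wnt list 12 of 18 and 1, in the TGF-beta, activin and BMP list 10 of 18 and 4, and in the Notch list 5 of 10 and 2, with medians from -1.49 to -0.94. In that order, 2, 4, 3 and 3 of the genes tested reached 1 FPKM in the IL6-iHPCs only and so entered through the group in which they were high. Over all members with any read the medians were -1.13, -0.23, -0.71 and -0.77, beside -0.06 for all genes with any read. After median-of-ratios scaling 6, 9, 6 and 3 genes of these lists were lower, beside 2068 of all 11006 genes. With the length trend removed 3, 6, 6 and 3 were lower, beside 1601 of 11006, and the YAP and TEAD list no longer stood above all genes. Tead2, a DNA-binding partner of YAP, fell from 42.8, 42.6 and 42.4 to 3.23, 2.93 and 3.36 FPKM. Wnt7b, a Wnt ligand, fell from 20.1, 21.1 and 20.9 to 1.98, 1.72 and 2.27 FPKM and Fzd2, a Wnt receptor, from 9.51, 9.42 and 10.02 to 0.311, 0.544 and 0.579 FPKM. Tgfbr1, the type I receptor of TGF-beta, fell from 25.8, 24.3 and 24.5 to 4.14, 3.27 and 3.03 FPKM. In the Notch pathway the ligand Jag1 rose, from 3.39, 3.39 and 3.34 to 11.02, 10.5 and 11.4 FPKM, and the DNA-binding partner Rbpj fell, from 26.02, 25.7 and 26.5 to 5.89, 4.51 and 4.27 FPKM.

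Ribosome biogenesis fell in 22 of 24 genes and rose in none (median -1.99). Utp20, of the small subunit processome, fell from 23.7, 23.2 and 24.1 to 2.69, 2.11 and 2.57 FPKM and Ncl, nucleolin, from 112, 97.7 and 103 to 17.4, 15.5 and 16.9 FPKM. The amino acid stress response, endoplasmic reticulum folding and NRF2 lists had medians of -0.32, -0.17 and -0.16, all of which turned positive after median-of-ratios scaling. Within the first of these, Phgdh and Slc7a5, of serine synthesis and amino acid uptake, fell from 339.9, 351 and 338 to 83.1, 92.3 and 97.4 FPKM and from 48.02, 47.6 and 47.4 to 8.46, 7.09 and 8.57 FPKM, while Chac1, a glutathione-degrading target of the ATF4 arm, rose from 7.49, 8.57 and 6.88 to 30.9, 42.1 and 42.1 FPKM. Cat, catalase, rose from 88.7, 89.3 and 90.9 to 452, 465 and 478 FPKM.

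In the interferon and antigen presentation list 11 of 20 rose and 4 fell, beside 11.3% of all genes higher and 39.3% lower. Of the 20, 5 reached 1 FPKM in the IL6-iMHs only and so entered through the group in which they were high. The median was 1.53, or 0.57 over all members with any read. B2m, the light chain of class I molecules, rose from 143, 126 and 141 to 1373, 1455 and 1194 FPKM (3.28 ± 0.09) and H2-T23, a class I gene with near copies, from 21.3, 19.8 and 20.3 to 120.0, 140.4 and 128 FPKM. Of 12 housekeeping genes 5 fell and none rose, with a median of -0.44 that turned to 0.21 after median-of-ratios scaling. Sdha, of the respiratory chain, had 111, 111 and 107 FPKM in the IL6-iHPCs and 112, 113 and 112 FPKM in the IL6-iMHs and did not pass the test, and Actb, of the cytoskeleton, fell from 1446, 1481 and 1443 to 318, 316 and 358 FPKM.

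A few genes known from other cell types were detected, while most of their lists were not. Of 8 mesothelial markers 3 were tested, namely Msln, Krt19 and Upk1b. The 8 summed to 754 to 770.2 FPKM in the IL6-iHPCs and 252 to 287 FPKM in the IL6-iMHs, against at most 0.102 FPKM in hepatocytes, and most of this was Krt19, which is shared with bile ducts, and Msln, whose change of -0.70 did not pass the test. All 3 were higher in the IL6-iMHs than in hepatocytes. Of 16 Kupffer cell and macrophage markers 3 passed the limit for testing. Csf1r, the receptor for macrophage colony-stimulating factor, rose from 0.15, 0.177 and 0.0404 to 21.3, 17.8 and 20.6 FPKM (4.22 ± 0.08) and Cd68, a lysosomal protein of macrophages, from 5.53, 5.54 and 4.47 to 19.4, 14.7 and 18.5 FPKM, while Cd14, a receptor for lipopolysaccharide that hepatocytes can express, fell from 77.04, 81.6 and 80.999 to 36.02, 40.5 and 34.04 FPKM, a call lost under at least 1 other scaling. The summed level of the 8 defining markers was 32.5 to 40.7 FPKM in the IL6-iMHs and 4.60 to 5.82 FPKM in the IL6-iHPCs, beside 11.4 to 13.6 FPKM in hepatocytes, with Clec4f, Vsig4, Cd5l and Ptprc at 0 in all 3 IL6-iMH samples; the part of other cells in these values was not tested. Dcn, decorin, of fibroblasts, fell from 4.22, 4.82 and 4.202 to 0.0983, 0.073 and 0.199 FPKM. S100a8, a calcium-binding protein of neutrophils and of stressed epithelia, fell from 86.9, 80.9 and 84.1 to 1.58, 2.02 and 1.06 FPKM, and the haemoglobin genes Hbb-bs and Hba-a1 were at 0 in all 6 samples.

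The maturation of the same line at P10 was used to ask which changes differed between the 2 passages. The samples of each passage are technical repeats, so passage cannot be told apart from other differences between the 2 cultures. At P10, 1141 of the same genes rose and 1775 fell (10.4% and 16.1%), with a median of -0.19. The change at P35 minus that at P10 was called for 3998 genes (36.3%), 1076 above and 2922 below (9.78% and 26.5%), and 1678 and 1701 after quantile normalization. The 2 maturations went in opposite directions, each with its own call, in 88 genes and in the same direction in 1825. The starting points differed: the 108 listed cell cycle genes took 1.248% to 1.265% of reads in the IL6-iHPCs at P35 and 0.236% to 0.248% at P10, and the 368 listed hepatocyte genes 3.81% to 3.84% at P35 and 21.6% to 23.5% at P10. After maturation these shares lay at 0.213% to 0.216% and 30.3% to 33.2% at P35, beside 0.183% to 0.196% and 35.5% to 36.9% at P10.

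Of all lists with at least 7 genes tested, mitosis and DNA replication had the lowest median differences. The change at P35 was below that at P10 in all 36 genes of mitosis and 34 of 35 of DNA replication, with median differences of -4.37 and -3.14 against -0.45 over all genes. Ccnb1 averaged 0.289 FPKM in IL6-iHPCs and 1.502 FPKM in IL6-iMHs at P10, against 88.99 and 0.297 FPKM at P35, a difference in change of -7.07 ± 0.16. Ube2c, Ccnb2, Ccna2 and Kif22 were, with Ccnb1 and Cxcl5, the 6 genes furthest below, and Cxcl5 averaged 0.388 FPKM in the IL6-iHPCs at P10 against 187 FPKM at P35.

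In secreted proteins the change at P35 lay above that at P10 for 21 of 23 plasma proteins and 15 of 17 acute phase proteins, and below it for none (median differences 3.10 and 2.90). Of the plasma proteins 21 rose at P35, and 11 rose and 1 fell at P10. Of the acute phase proteins 8 rose and 3 fell at P35 whereas 1 rose and 8 fell at P10, so that part of these differences set a smaller fall or no call at P35 against a fall at P10. Among the genes furthest above were Serpina3k, Itih3, Mup3, Vtn and Mup20. Serpina3k averaged 2686 FPKM before and 5607 FPKM after maturation at P10, against 4.199 and 5062 FPKM at P35 (8.87 ± 0.14), and Vtn 1214 and 2102 FPKM against 6.32 and 1829.5 FPKM (7.17 ± 0.12). In both genes the IL6-iMHs of the 2 passages lay close together and the IL6-iHPCs far apart. Saa3 fell at both passages, from 340.2 to 8.72 FPKM at P10 and from 309 to 136 FPKM at P35, a difference in change of 3.84 ± 0.36 that stands for a smaller fall at P35.

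A few hepatocyte genes came back less at P35. In the urea cycle list the change at P35 was below that at P10 in 5 of 12 genes and above it in 2, with a median difference of -0.56 that is close to the -0.45 of all genes. Arg1 averaged 297 FPKM in the IL6-iMHs at P10 and 18.5 FPKM at P35 (-3.57 ± 0.18), and Ass1 1782 and 512 FPKM, a difference in change of -1.68 ± 0.22 that is in the range in which calls of this comparison depended on the scaling. Uox, urate oxidase, averaged 89.8 FPKM in the IL6-iMHs at P10 and 4.17 FPKM at P35 (-3.83 ± 0.15). Among the genes of the biliary list, Krt19 rose at P10, from 7.65 to 47.98 FPKM, and fell at P35, from 510.2 to 107 FPKM (-4.77 ± 0.17), while Sox9 fell at both passages, from 41.5 to 3.905 FPKM at P10.

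**Figure D4:**
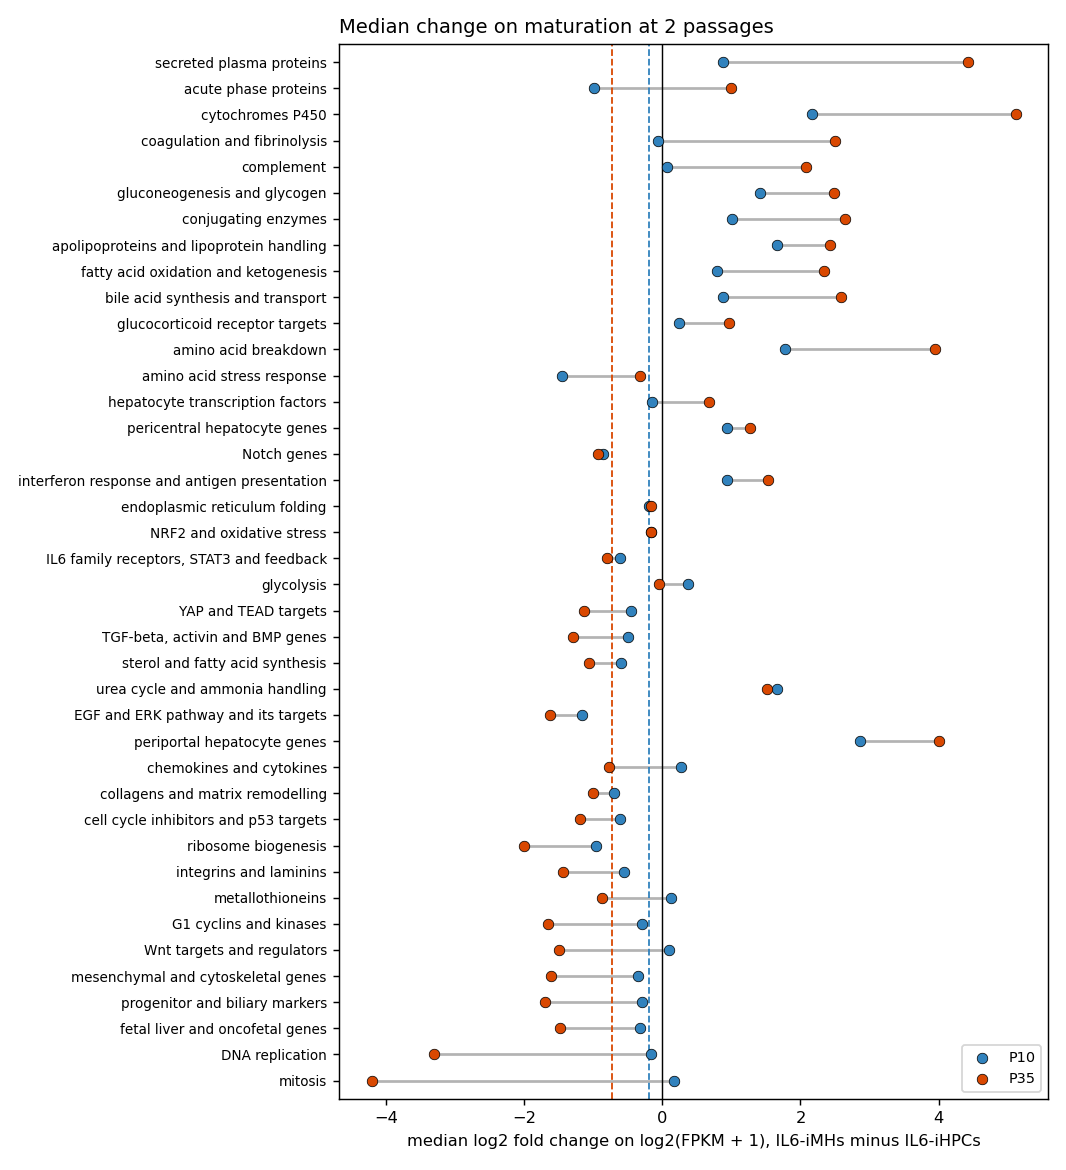
Median log2 fold change on maturation of each list with at least 7 genes tested, at P10 (blue) and P35 (orange), ordered by the median difference of the genes; dashed lines are the medians of all genes, -0.19 and -0.72. Mitosis and DNA replication fell at P35 (-4.20 and -3.31) and stood at 0.17 and -0.16 at P10, and the acute phase list was on opposite sides of 0, at 0.99 and -0.98.

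How near the IL6-iMHs came to hepatocytes was compared with the 3 samples of freshly isolated cells. This comparison shares the IL6-iMH samples with those above. The hepatocytes and mouse-1 also differ in Y-linked reads, since 4 Y-linked genes held 994 to 1550 reads in each hepatocyte sample and at most 2 reads in any IL6-iHPC or IL6-iMH sample of mouse-1 at either passage. Against hepatocytes, 3340 genes were higher in the IL6-iMHs and 649 lower (30.3% and 5.9%; median 0.56), and 1434 and 1214 after quantile normalization. The IL6-iHPCs differed from hepatocytes in 70.6% of genes, with 6674 higher and 1093 lower (60.6% and 9.93%). The animal, the difference in Y-linked reads, the isolation and the culture cannot be told apart in these differences.

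Among hepatocyte functions, the lists came to lie between -0.25 and -1.31 of hepatocytes in the median for conjugating enzymes, fatty acid oxidation, gluconeogenesis, acute phase proteins, plasma proteins, cytochromes P450, apolipoproteins, complement, bile acids, coagulation and the urea cycle. Amino acid breakdown stayed further off at -1.97, with 19 of 32 genes lower, and periportal and pericentral genes furthest, at -3.19 and -4.15. Since the median of all genes was 0.56 above hepatocytes, the lists lay further off when read against it. The first group of lists then lay between -0.81 and -1.87, amino acid breakdown at -2.53, and periportal and pericentral genes at -3.74 and -4.71. Of 29 cytochromes P450, 12 were lower than in hepatocytes and 6 higher. These medians leave out members that stayed below the limit for testing at P35, among them 9 of 38 cytochromes P450 and 6 of 26 bile acid genes. Summed over all members, cytochromes P450 averaged 3170 FPKM in the IL6-iMHs and 11544 FPKM in hepatocytes, and apolipoproteins 20466 and 59102 FPKM. Such sums were lower than in hepatocytes for each of these lists except acute phase proteins (4926 and 4587 FPKM).

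The genes that rose on maturation and remained furthest below hepatocytes were Serpina1e, Pck1, Haao, Apom, Cyp2e1 and Uox. Serpina1e, an alpha-1 antitrypsin with near-identical copies, reached 45.2, 48.8 and 52.3 FPKM against 13365 ± 1065 FPKM (-8.07 ± 0.13), Haao, of tryptophan breakdown, 1.73, 2.52 and 1.75 against 541 ± 34.4 FPKM, and Apom, an apolipoprotein of high-density particles, 1.3999, 1.72 and 2.11 against 482 ± 32.1 FPKM. All of these stayed at a small part of the hepatocyte level although each had risen. Among those furthest above were Tff3, Ctgf, Cpe, Psca and Sgk1. Tff3, a trefoil peptide of mucous epithelia, had 3.78, 4.62 and 4.13 FPKM in the IL6-iHPCs and 2114, 2345 and 2133 FPKM in the IL6-iMHs, against 5.44 ± 0.207 FPKM in hepatocytes (8.41 ± 0.14). Sgk1, a glucocorticoid-induced kinase, rose from 129, 131 and 132 to 388, 364 and 364 FPKM against 1.56 ± 0.216 FPKM.

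Some groups stayed above hepatocytes after maturation. Glycolysis was higher than in hepatocytes in 18 of 19 genes (median 2.60), the YAP and TEAD list in 18 of 22 (2.28) and the amino acid stress response in 15 of 22 (2.97), against 30.3% of all genes. Of the progenitor and biliary markers 14 of 20 were higher and none lower. Mitosis was called higher in 1 of 36 genes and DNA replication in 7 of 35, with 2 of the latter lower. Of the 36 mitosis genes only 7 reached a mean of 1 FPKM in the IL6-iMHs and 3 in hepatocytes. Genes under 1 FPKM in both groups could not be called.

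**Figure D5:**
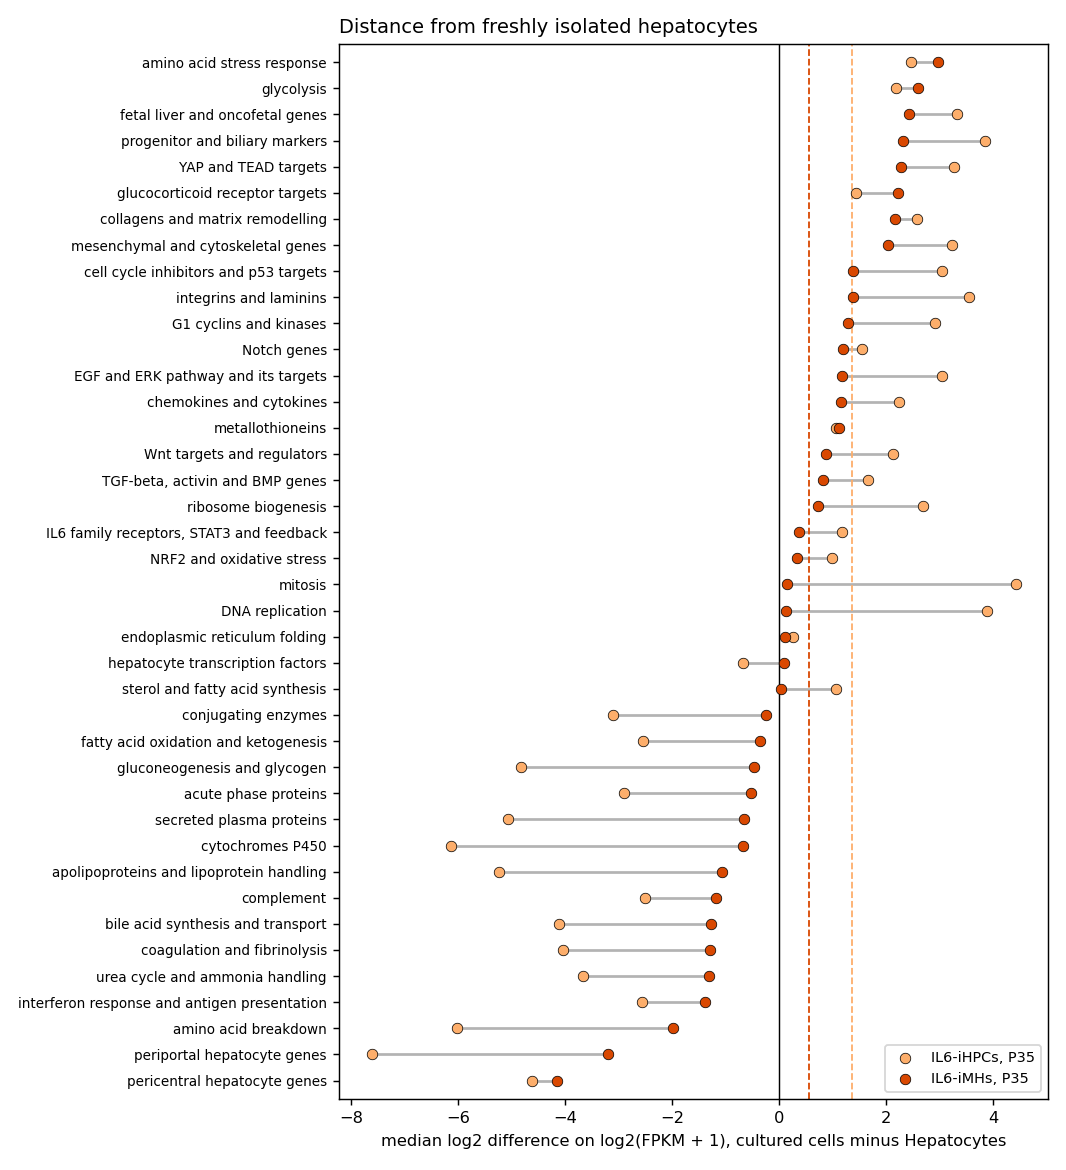
Median log2 difference from hepatocytes of each list with at least 7 genes tested, for IL6-iHPCs (light) and IL6-iMHs (dark) of mouse-1 at P35, ordered by the IL6-iMHs; dashed lines are the medians of all genes, 1.36 and 0.56. Cytochromes P450 move from -6.13 in the IL6-iHPCs to -0.67 in the IL6-iMHs, periportal genes from -7.61 to -3.19 and pericentral genes only from -4.62 to -4.15. Members that stayed below the limit for testing at P35 are not included.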

How the data were processed

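Poly-A RNA libraries of all samples were sequenced on an Illumina instrument. Per the submitters' processing notes, reads were processed with TopHat 1.4.1 and Cufflinks 1.3.0 on mm10. The authors deposited 1 table of expression values per gene symbol for 33 samples, whose unit is not given in the sources used here and was taken as FPKM from its values, since 99.9679% of them came out as whole reads (tolerance 0.05 reads). Symbols altered to dates (27) were left as given, and 2 symbols that stood on more than 1 row were averaged. Log2(FPKM + 1) was fitted with limma 3.58.1 in R 4.3.3 (limma-trend, 11 groups, all 33 samples), with Benjamini-Hochberg adjustment over 11006 genes. A gene was called when its adjusted p was below 0.05 and its change 2-fold or more.

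The script was tested on simulated data, in which 200 of 11006 genes were changed by 1.5 on the log2 scale: 100% were called in the maturation, 99% in its difference from P10 and 100% against hepatocytes. The simulated noise was independent between samples, and no shift with library composition or transcript length was put in. The simulation therefore checks the code only and cannot speak to the dependence on scaling. The FPKM limits and the gene lists were chosen with earlier results of these data known. Named are marker genes, the 2 largest rises and falls of each list, the 15 largest rises and falls, the 6 largest differences from P10 in each direction and the 6 genes that rose and lay furthest below and above hepatocytes. Some genes that this rule selects are not reported here. Cdc20, Cdkn1a, Cebpa, Fga, Fgb, Foxa2, Rrm2, Ttr, Uhrf1 and, in the closing section, Ccl2 and Cyp2b10 fall outside this rule and were chosen after their values were seen, as were the promoters and motifs and the setting with the length trend removed. Other settings were another pseudocount, other filters on low values, quantile and median-of-ratios scaling, limma voom on recovered reads, a fit of the groups compared alone, a replicate block, other fold limits and leaving out each sample.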

Additional observations from a re-analysis of the deposited data

Results flagged for a closer look

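The change on maturation differed between P35 and P10, by the interaction term of the fit, in 3998 genes. Among the genes named here, the following were called in opposite directions at the 2 passages or were among the 6 largest differences in each direction. The change at P35 was above that at P10 by 8.87 on the log2 scale for Serpina3k, by 8.15 for Itih3, by 7.37 for Mup3, by 7.17 for Vtn and by 7.03 for Mup20. It was below by the amounts -7.07 for Ccnb1, -6.997 for Cxcl5, -6.83 for Ube2c, -6.24 for Ccnb2, -6.10 for Ccna2 and -5.96 for Kif22.

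Fos, Egr1, Jag1 and Chac1 rose at P35 and fell at P10, with differences of 5.46, 5.42, 2.52 and 3.67. Fos averaged 5.83 FPKM before and 1.76 FPKM after maturation at P10, against 1.56 and 45.9 FPKM at P35, and Egr1 60.4 and 6.59 FPKM against 17.3 and 98.5 FPKM. Krt19, Afp, Emp1, S100a4 and Ccl2 fell at P35 and rose at P10, with differences of -4.77, -3.57, -5.36, -4.62 and -3.89. Emp1 averaged 0.407 and 2.58 FPKM at P10, against 172 and 9.61 FPKM at P35.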

How the results depend on the processing

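Technical repeats within the 11 groups of the 33 samples, fitted together, set the error of every test. At 54.9 to 73.9 M reads on genes, depth limited only genes with few reads. Besides the fold limit, the counts depended on scaling, and the cause was not tested. With the length trend removed, after median-of-ratios scaling and after quantile normalization, in that order, maturation had 2067, 1968 and 1932 genes higher and 1601, 2068 and 2088 lower (3668 in all with the length trend removed), the difference from P10 had 1783, 1726 and 1678 above and 1328, 1405 and 1701 below, and 1491, 2101 and 1434 genes were higher and 1268, 1365 and 1214 lower than in hepatocytes (2648 in all after quantile normalization). Of the maturation calls 22.4% were higher as reported, and 56.4%, 48.8% and 48.1% under these settings. With no limit on the fold change 9969 (2492 and 7477), 8890 (2510 and 6380) and 9483 (7580 and 1903) genes were called in the 3 comparisons, and at 4-fold 1661 (615 and 1046), 1018 (358 and 660) and 1276 (999 and 277). Against hepatocytes 1003 genes were lower with no filter and 989 with the filter applied to all 33 samples, since more genes were tested. Leaving out each sample gave 5470 to 5643 genes (1233 to 1258 higher, 4225 to 4385 lower), 3893 to 4199 (1047 to 1103, 2822 to 3107) and 3864 to 4153 (3217 to 3481, 632 to 673). Same-numbered samples did not deviate together (correlations 0.040, -0.13 and -0.11), and the replicate block gave the same counts, 5566, 3998 and 3989, and changed no list median's direction. The medians that changed sign were those of glycolysis (0.53 with the length trend removed, 0.60 after median-of-ratios scaling and from -0.10 to 0.016 with each sample left out, positive without IL6-iMHs-mouse-1 (P35) replicate 2), the IL6 family (0.078, length), the amino acid stress response (0.42, 0.30 and, after quantile normalization, 0.26), endoplasmic reticulum folding (0.37 and 0.48), NRF2 (0.33 and 0.41) and housekeeping genes (0.012 and 0.21). Notch2 turned to 0.082 on maturation and Mt2 to 0.023 in the difference from P10 with the length trend removed, and with voom on recovered reads the difference turned to 2.61 for Haao, 3.76 for Hpd, 3.16 for Pck1, -0.021 for Sox9 and -2.49 for Upk1b.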

Other observations

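Chemokines and cytokines were divided on maturation at P35. Of 14 tested, 4 fell and 2 rose, beside 39.3% of all genes lower and 11.3% higher (median -0.77, beside -0.72 for all genes). Cxcl1, which attracts neutrophils, fell from 136, 131 and 149 to 25.5, 36.8 and 28.1 FPKM, and Ccl2, which attracts monocytes, from 45.9, 47.9 and 47.9 to 12.8, 15.3 and 15.5 FPKM, whereas at P10 Ccl2 rose from 3.598 to 20.01 FPKM. Cx3cl1, fractalkine, rose from 5.63, 6.31 and 6.03 to 13.1, 12.6 and 14.5 FPKM, while hepatocytes were listed at 0. Of 7 genes of metal handling tested 1 fell and none rose. The metallothioneins Mt1 and Mt2, which bind zinc and copper, did not pass the test and had 1217, 1039.7 and 1115 FPKM in the IL6-iHPCs and 1395, 1491 and 1210.4 FPKM in the IL6-iMHs for Mt1 and 1643, 1310.1 and 1454 FPKM in the IL6-iHPCs and 864, 746 and 696 FPKM in the IL6-iMHs for Mt2, far above hepatocytes at 41.3 ± 3.17 and 17.3 ± 2.23 FPKM.

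Some genes came up on maturation at both passages to levels above those of freshly isolated hepatocytes, which also differed from mouse-1 in Y-linked reads. Tff3, the trefoil peptide, averaged 2.71 FPKM before and 1074 FPKM after maturation at P10, beside 4.18 and 2197 FPKM at P35 and 5.44 FPKM in hepatocytes. Psca, a surface protein of epithelial stem cells, averaged 6.19 and 65.3 FPKM at P10 and 38.2 and 209 FPKM at P35, and hepatocytes were listed at 0. Cyp2b10, a cytochrome P450 induced through the receptors Nr1i3 and Nr1i2, averaged 0.0941 and 80.1 FPKM at P10, 0.0574 and 119.8 FPKM at P35 and 1.96 ± 0.128 FPKM in hepatocytes. Csf1r averaged 0.104 and 3.06 FPKM at P10 and 0.122 and 19.9 FPKM at P35, against 1.06 ± 0.0766 FPKM in hepatocytes.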
